A study of Mus musculus with 43 samples.

Results

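RNA of inguinal white adipose tissue, the subcutaneous fat of the mouse groin, was compared at postnatal day 25 (P25), just after weaning, between mice with floxed Bcl6 alleles alone and mice that also carry the Prx1-cre transgene. These are 15 of the 43 samples of the study, which were chosen because they form its comparison of Bcl6 genotypes near weaning. The 7 control libraries are labelled Bcl6 f/f, P25, 22 C and the 8 knockout libraries Bcl6 f/f Prx1-cre, P25, 22 C, so that every animal carries floxed Bcl6 and was kept at 22 C. They are called floxed and Prx1-cre libraries here, and each is named by the letter and number of its column in the deposited table. The other libraries used are the same genotypes at 9 weeks and 4 C, 4 of each. By its title, the study asks whether beige fat near weaning and beige fat recruited by cold depend on different signalling and transcription.

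Bcl6 is a zinc finger repressor that recruits corepressors and binds a DNA element close to the one used by STAT factors. It is best known from B cells and helper T cells, and in liver it opposes genes induced by growth hormone through Stat5. Prx1-cre is driven by an enhancer of Prrx1 that is active in limb bud and other mesenchyme, from which adipocytes and stromal cells of the inguinal depot come, so recombination is not limited to fat cells. Beige adipocytes are fat cells within white depots that can burn fuel through the proton carrier Ucp1, and in mice many appear in the inguinal depot around weaning. The strain background and the sampled animals' sex are not given in the labels, and no label says that samples are separate animals. The p-values therefore describe how far these libraries scatter, which may be technical in part.

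Sequences before the starts of Bcl6, Prlr (prolactin receptor) and Esr1 (oestrogen receptor alpha) are shown because all 3 genes were higher in Prx1-cre libraries and hold the narrower form of the STAT element that resembles the Bcl6 site. Capitals mark matches to TTCNNNGAA, a palindrome. Each stretch lies inside its own gene, before an alternative start, and is given 5' to 3' on the gene's strand, from RefSeq's GRCm38.p6 (mm10) table: Bcl6 at chr16:23981284-23981533 (minus strand), Prlr at chr15:10223656-10223905 (plus) and Esr1 at chr10:4709908-4710154 (plus).
Bcl6: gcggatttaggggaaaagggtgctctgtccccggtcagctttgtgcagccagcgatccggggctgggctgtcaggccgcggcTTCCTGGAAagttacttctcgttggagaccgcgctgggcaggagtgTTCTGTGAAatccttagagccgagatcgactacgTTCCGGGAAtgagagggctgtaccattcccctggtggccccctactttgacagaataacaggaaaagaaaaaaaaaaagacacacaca
Prlr: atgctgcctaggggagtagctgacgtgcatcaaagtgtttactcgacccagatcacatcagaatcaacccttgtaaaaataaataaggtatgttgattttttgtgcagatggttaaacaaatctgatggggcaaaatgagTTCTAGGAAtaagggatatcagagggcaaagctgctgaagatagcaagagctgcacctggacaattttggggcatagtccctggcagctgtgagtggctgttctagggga
Esr1: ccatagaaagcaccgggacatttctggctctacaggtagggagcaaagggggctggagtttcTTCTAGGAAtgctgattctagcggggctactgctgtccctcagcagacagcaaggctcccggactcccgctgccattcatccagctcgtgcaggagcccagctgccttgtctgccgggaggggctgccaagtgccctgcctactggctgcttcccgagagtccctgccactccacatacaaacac
The longest stretches without annotated exons between the opposed starts of Usp29 and Peg3 at chr7:6730432-6730577, and of Hadhb and Hadha at chr5:30155163-30155247, both on the plus strand, are shown because each pair of neighbours changed together and in opposite senses to the other pair. Neither stretch shown holds a match to the element, so they have no capitals. In the exon bases left out between Hadhb and Hadha lies 1 match, TTCTCTGAA, at 125 bases before the Hadhb start.
Usp29 and Peg3: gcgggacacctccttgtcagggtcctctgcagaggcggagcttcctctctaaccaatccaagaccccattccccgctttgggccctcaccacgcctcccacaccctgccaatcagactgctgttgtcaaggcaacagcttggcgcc
Hadhb and Hadha: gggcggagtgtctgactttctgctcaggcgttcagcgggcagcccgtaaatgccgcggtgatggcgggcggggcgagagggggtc

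Values are the authors' normalized counts per gene. A gene was tested when it reached 10 in at least 7 libraries, on log2(value + 1), which understates the change of genes with low values. Values with ± in brackets are log2 fold changes of the 8 Prx1-cre over the 7 floxed libraries, with their SE, unless named otherwise. A gene is said to have risen or fallen where its Benjamini-Hochberg adjusted p from limma was under 0.05 over the 12738 genes tested. Of these, 450 changed, which is 3.53% of them, 199 risen (1.56%) and 251 fallen (1.97%). Counts of list members below are to be read beside these shares, and some of them lie near the shares. In 165 genes (1.30%) the groups' libraries did not overlap, 83 with the Prx1-cre libraries above (0.652%) and 82 below (0.644%). Estimated depth was 4989000 to 15780000 reads a library. Xist and the Y-linked transcripts matched the letter M or F of the column in all 15 libraries, which gave 4 male and 3 female floxed libraries and 4 male and 4 female Prx1-cre libraries. Fat cell genes were abundant in all 15: Adipoq, the adipokine adiponectin, lay between 22711 and 39099 in floxed and between 27477 and 38406 in Prx1-cre libraries (log2 difference 0.01 ± 0.13 SE, adjusted p = 0.986). The skeletal muscle list summed to 6676 to 49064 in floxed libraries and to 715 to 102092 in Prx1-cre libraries, so muscle RNA differed widely within each group. In tissue of mixed cells, fewer cells of a type and less RNA per cell cannot be told apart.

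The gene total of Bcl6 (chr16:23965050-23988866) was higher, not lower, in the libraries labelled Prx1-cre. It was 454 at the lowest, 759 at the median and 1395 at the highest in floxed libraries, against 1517, 2715 and 3329 in Prx1-cre libraries, with no overlap (log2 fold change 1.78 ± 0.23 SE, adjusted p = 0.000235). A gene total does not show whether the floxed exons were read, so it does not check the labels, and directions below are between libraries as labelled. Prrx1 was at 350, 583 and 1450 against 387, 705 and 1260, and the groups overlapped (0.12 ± 0.35, adjusted p = 0.921). Of 19 tested genes for Bcl6 and its corepressors, 3 rose and none fell, with a list median of 0.04 beside 0.0039 over all tested genes. The other risen members were the histone deacetylase Hdac4, from a median of 301 to 391 (0.40 ± 0.08, adjusted p = 0.00662), and the Bcl6 corepressor Mta3, from 512 to 609 (0.28 ± 0.07, adjusted p = 0.0238). The call of Mta3 was lost without floxed M1, M3 or F3 (highest adjusted p = 0.0607, without M3). Of 4 tested genes within 500 kb of Bcl6, only Bcl6 passed.

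The element TTCNNNGAA, searched on the 300-base promoter windows of RefSeq, lay in 8.30% of all windows. It was in a window of 859 of 10108 tested genes with one (8.50%), in 16 of 148 risen genes (10.8%) and in 12 of 186 fallen genes (6.45%). The narrower TTCCTNGAA, searched on both strands and contained in the first, was in 1.59% of all windows, in 1.52% of tested genes, in 6 risen genes (4.05%) and in 2 fallen genes (1.08%). The risen genes with it were Bcl6, Prlr, Esr1, Ahcyl2, Ppp1r12b and Smyd2, and the fallen genes Pccb and Coq10a. The alternative Bcl6 window held 3 matches, TTCCTGGAA, TTCTGTGAA and TTCCGGGAA, at 168, 122 and 88 bases before the start. These are matches of letters and say nothing of binding. Esr1 had a median of 1229 in floxed and 1965 in Prx1-cre libraries (0.62 ± 0.11, adjusted p = 0.00483), with overlapping groups.

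Among genes of growth hormone and prolactin signalling, a feedback inhibitor and a receptor rose. Socs2, the inhibitor, which is induced by Stat5, rose from a range of 139 to 331 to one of 860 to 1886, with no overlap (2.84 ± 0.19, adjusted p = 1.82e-07). Prx1-cre library F4, the lowest of its group for Socs2, was also the lowest for Bcl6. The receptor Prlr rose from a median of 249 to 643, and the groups overlapped (1.18 ± 0.26, adjusted p = 0.017). Fitted within each sex, Prlr rose in males (1.49 ± 0.22, adjusted p = 0.00335) but did not pass in females (0.72 ± 0.24, adjusted p = 0.325). The sex difference in this effect was not called (adjusted p = 0.999). Among floxed libraries Prlr was higher in females than in males (1.17 ± 0.24, adjusted p = 0.0468). In the adult cold-housed libraries, all high in Xist, Prlr did not pass (-0.37 ± 0.58, adjusted p = 0.706), and the age difference was not called (adjusted p = 0.526). Of the list's 19 tested genes 2 rose and 1 fell, with a median of -0.0046. Those that did not pass include the growth hormone receptor Ghr (-0.20 ± 0.11, adjusted p = 0.439), Jak2 (0.08 ± 0.11, adjusted p = 0.797), Stat5a (-0.25 ± 0.07, adjusted p = 0.0777), Stat5b (-0.07 ± 0.09, adjusted p = 0.79) and Igf1 (-0.25 ± 0.17, adjusted p = 0.541). Cish, another Stat5 target, ranged from 70.7 to 1179 in floxed and from 116 to 457 in Prx1-cre libraries (0.07 ± 0.52, adjusted p = 0.977).

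**Figure D1:**
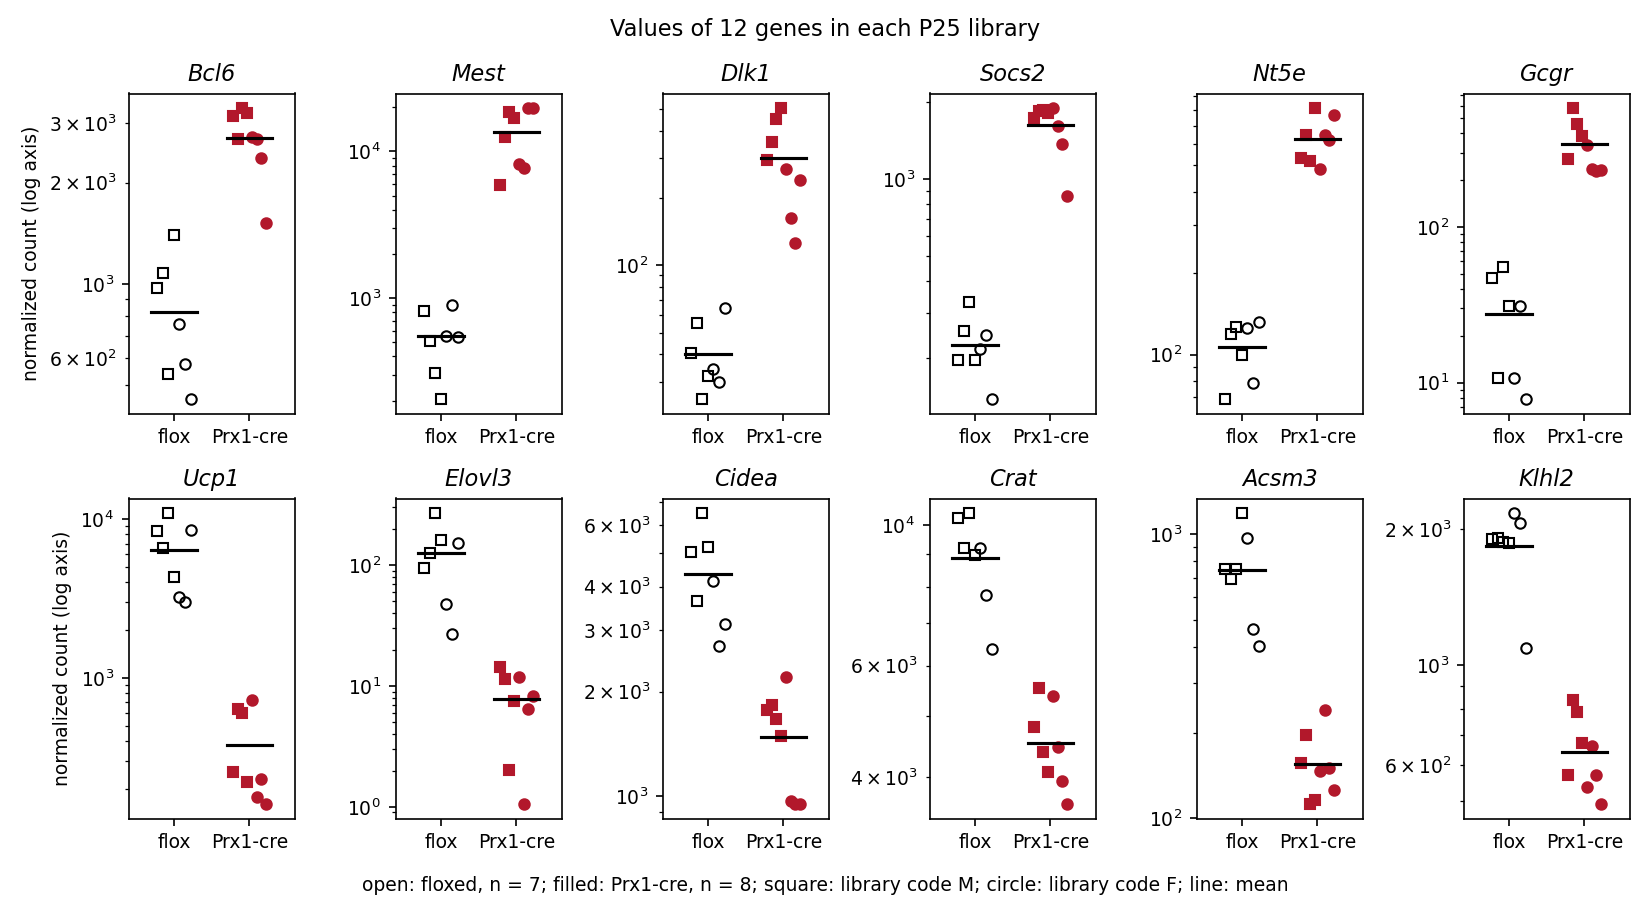
Normalized count (log axis) of 12 genes in each P25 library, by genotype; open symbols are the 7 floxed and filled symbols the 8 Prx1-cre libraries, squares are libraries coded M and circles libraries coded F, and lines are means. The groups do not overlap in any of the 12 genes; Bcl6 and Socs2 are lowest in Prx1-cre library F4 among the filled symbols, and Klhl2 is lowest in floxed library F4 among the open ones.

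Genes under genomic imprinting, of which the parental copies are expressed unequally, were among the highest rises. Of 36 tested imprinted genes 9 rose and none fell (beside 1.56% of all tested genes risen), with a median of 0.20. The 9 were Mest, Usp29, Zim1, Klf14, Dlk1, Peg3, Cdkn1c, Igf2 and Gnas. Mest (chr6:30733506-30748466), a paternally expressed gene linked to fat expansion, had 205, 541 and 902 at the lowest, median and highest floxed library, and 5872, 14739 and 19770 in Prx1-cre libraries (4.65 ± 0.34, adjusted p = 5.71e-07). The preadipocyte factor Dlk1 (chr12:109452485-109463336) had 25.2, 34.5 and 64.3 against 126, 282 and 504 (2.81 ± 0.29, adjusted p = 2.02e-05). The groups did not overlap in either gene. Cdkn1c, a cyclin-dependent kinase inhibitor, rose from a range of 278 to 472 to one of 744 to 1229 (1.38 ± 0.14, adjusted p = 1.27e-05), and the fetal growth factor Igf2 from between 243 and 410 to between 459 and 693 (0.88 ± 0.12, adjusted p = 0.00036). Of the 36 genes, 7 had groups that did not overlap. Gnas was at a median of 39.3 and 89.6, and its call was lost without any 1 of 9 libraries (highest adjusted p = 0.0729, without floxed M3). Its transcripts share exons with imprinted neighbours, so its total is uncertain.

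Around Mest, 5 of 8 tested genes within 500 kb rose and none fell, beside 1.56% risen over all tested genes. Mest itself is counted in both numbers, and the window was chosen after its rise was seen. Klf14, an imprinted transcription factor gene of 1 exon, was at 1.00 to 67.4 in floxed and 78.5 to 265 in Prx1-cre libraries, with no overlap (3.42 ± 0.55, adjusted p = 0.00172). Cep41, a centrosome protein, rose from a median of 72.2 to 142 (1.01 ± 0.13, adjusted p = 0.000321), and the nuclear pore protein Tmem209 rose from 247 to 384 (0.61 ± 0.11, adjusted p = 0.00564). Copg2, whose annotated span overlaps the end of Mest on the other strand, had medians of 825 and 850 (0.08 ± 0.08, adjusted p = 0.717), and Zc3hc1 and Klhdc10 did not pass at 0.05 ± 0.10 and 0.13 ± 0.07.

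In the imprinted domain of chromosome 7, 3 of 11 tested genes within 500 kb of Usp29 rose, beside 1.56% over all tested genes. Usp29 itself is counted in both numbers, and this window too was chosen after the values were seen. Usp29 (chr7:6730559-6967220), a paternally expressed ubiquitin protease gene, went from a range of 2.01 to 11.8 to one of 65.0 to 132 (3.55 ± 0.29, adjusted p = 2.18e-06). Zim1, a maternally expressed zinc finger gene, went from between 4.05 and 78.5 to between 87.1 and 931 (3.16 ± 0.66, adjusted p = 0.0123). Both rose without overlap between groups. Peg3, a paternally expressed zinc finger gene whose start lies against that of Usp29, had 184, 1266 and 2041 against 1456, 4171 and 7099, with overlap (1.91 ± 0.48, adjusted p = 0.0372). Its call was lost without floxed M1, M3 or F3 or Prx1-cre M2, M3, F2, F3 or F4, with the highest adjusted p of 0.0824 without floxed M3. The other 8 genes, 7 of them zinc finger genes, lay between -0.23 and 0.24 and did not pass. Over the whole genome, 567 pairs of tested genes have overlapping promoter windows on opposite strands. Of these, 14 pairs held a changed gene and 3 held changes of both members, beside 3.53% changed among all tested genes counted singly. Those 3 changed in the same direction within the pair: Usp29 and Peg3 up, Col4a1 and Col4a2 up, and Hadha and Hadhb down.

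The remaining large rises were in receptors, signal regulators and enzymes. Gpr179, an orphan receptor of retinal bipolar cells, was at 0.683 to 5.73 in floxed and 54.5 to 124 in Prx1-cre libraries (5.03 ± 0.33, adjusted p = 1.82e-07). Gcgr, the glucagon receptor, was at 7.84 to 55.4 against 230 to 579 (3.81 ± 0.39, adjusted p = 2.02e-05). It was the largest of the 6 changes among 25 tested hormone and peptide receptors, of which 4 rose and 2 fell. Mc2r, the receptor for corticotropin, was another of the 4, from a median of 187 to 323 (0.59 ± 0.13, adjusted p = 0.0182). Rgs16, which speeds the shut-off of G protein signals, went from a range of 20.1 to 41.9 to one of 170 to 419 (2.90 ± 0.21, adjusted p = 4.88e-07). Rgs7 moved the other way, from between 157 and 396 to between 94.9 and 142 (-1.32 ± 0.17, adjusted p = 0.000301), and the other 12 of 14 tested RGS genes did not pass. None of these ranges overlapped except that of Mc2r.

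Ttpa, which binds vitamin E, had the smallest p of all genes: 28.4, 41.4 and 56.6 in floxed against 198, 277 and 376 in Prx1-cre libraries (2.72 ± 0.16, adjusted p = 9.83e-08). Nt5e, the ectoenzyme CD73 that makes adenosine from AMP, rose from a range of 68.5 to 132 to one of 482 to 813 (2.56 ± 0.16, adjusted p = 1.39e-07). With the nucleoside transporter Slc29a1, from between 479 and 901 to between 1250 and 1737 (1.27 ± 0.13, adjusted p = 2.83e-05), it made up the 2 risen genes of 16 tested for adenosine and nucleosides. The other 14 did not pass, and the list median was 0.08. St3gal6, a sialyltransferase, rose from a median of 718 to 2003 (1.57 ± 0.13, adjusted p = 2.73e-06), and the transcript Gm20125 from 6.12 to 52.9 (2.96 ± 0.25, adjusted p = 2.78e-06). Fcamr, an Fc receptor for IgA and IgM counted here with B cell and lymph node markers, went from between 3.24 and 19.1 to between 22.8 and 42.4 (2.18 ± 0.31, adjusted p = 0.000534). The other 11 of that list did not pass.

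In 3 mitochondrial lists a single member passed. Atp5g1, a gene for subunit c of ATP synthase, rose from between 553 and 912 to between 1814 and 2813 with no overlap (1.67 ± 0.13, adjusted p = 1.12e-06), and none of the other 62 tested genes of the respiratory chain and ATP synthase passed (list median -0.15). Mrps6 rose from a median of 897 to 1547 (0.89 ± 0.12, adjusted p = 0.000262), and none of the other 70 mitochondrial ribosomal protein genes passed (list median -0.13). The annotated span of Mrps6 overlaps that of Slc5a3, a myo-inositol transporter, which rose from 532 to 1434 (1.44 ± 0.20, adjusted p = 0.000458), and reads of the 2 genes may have been shared between them. Of 31 citric acid cycle and pyruvate genes only the kinase Pdk3 passed (0.51 ± 0.12, adjusted p = 0.031), and its call was lost without any 1 of 8 libraries (highest adjusted p = 0.0749, without floxed M3).

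Of 24 tested thermogenic effectors 14 fell and 2 rose (median -0.93), against 1.97% fallen and 1.56% risen over all genes. Ucp1 (chr8:83290348-83298456) was at 3020, 6548 and 10891 in floxed and at 160, 242 and 720 in Prx1-cre libraries (-4.18 ± 0.38, adjusted p = 6.48e-06). The fatty acid elongase Elovl3 was at 27.1 to 269 against 1.06 to 14.2 (-3.77 ± 0.51, adjusted p = 0.000386). The lipid droplet protein Cidea was at 2712 to 6512 against 950 to 2196 (-1.57 ± 0.22, adjusted p = 0.000533). No library of 1 group reached the other in these 3 genes. Other members also fell: the potassium channel Kcnk3 (-0.98 ± 0.18, adjusted p = 0.00491), the lipid droplet protein Plin5 (-1.27 ± 0.23, adjusted p = 0.00463), the acyl-CoA synthetases Acsf2 (-0.75 ± 0.10, adjusted p = 0.000235) and Slc27a2 (-2.46 ± 0.47, adjusted p = 0.00619), and S100b (-0.91 ± 0.15, adjusted p = 0.00169), which in fat is made by adipocytes and Schwann cells. Of 22 Schwann cell markers S100b alone fell, and the list median was -0.29. Fabp3, a fatty acid binding protein also of muscle, fell at -2.12 ± 0.41 (adjusted p = 0.00713), and the skeletal muscle list had a median of -1.46 with 20 of 21 tested members below 0 and none past the threshold. With the muscle list's mean as a covariate, the calls of Ucp1, Elovl3, Cidea, Fabp3 and Slc27a2 held. Over all tested genes that covariate left 335 called, 322 of them among the 450 of the main fit, so other calls were lost. Of the 112 tested genes given with values here, 7 lost their call under it. The part of muscle RNA in the falls was not tested.

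Of 32 tested transcription factors and cofactors that direct beige fat, none passed as fallen and 1 rose: Ppargc1a, a coactivator of mitochondrial genes, from a median of 187 to 285 (0.56 ± 0.14, adjusted p = 0.0422). That call was lost without any 1 of 12 libraries, all but floxed M1 and F4 and Prx1-cre M2, and was highest at adjusted p = 0.0948 without floxed M3. Prdm16 (-0.22 ± 0.20, adjusted p = 0.687), Pparg (-0.02 ± 0.16, adjusted p = 0.98), Ebf2 (0.16 ± 0.15, adjusted p = 0.69), Esrra (-0.26 ± 0.13, adjusted p = 0.371) and Irf4 (0.60 ± 0.47, adjusted p = 0.623) did not pass. Ppara, the receptor that drives fatty acid oxidation genes, ranged from 327 to 2406 in floxed and from 548 to 1989 in Prx1-cre libraries (-0.35 ± 0.37, adjusted p = 0.741). Of 26 tested genes of adrenergic and cAMP signalling 4 fell and 1 rose, with a median of 0.02. The catecholamine receptor Adrb3 fell from a median of 5312 to 3512 (-0.80 ± 0.18, adjusted p = 0.017), the receptor Adrb1 from 54.2 to 26.0 (-1.14 ± 0.23, adjusted p = 0.0101) and the adenylyl cyclase Adcy5 from 1741 to 885 (-1.07 ± 0.19, adjusted p = 0.00411).

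Genes for the breakdown of fatty acids and of branched-chain amino acids fell in large numbers. In mitochondria 16 of 32 fatty acid oxidation genes fell and none rose (median -0.49), beside 1.97% fallen over all tested genes. Of the 32, 29 had a negative log2 fold change. Acsm3, which activates medium-chain fatty acids, was at 402, 750 and 1184 against 112, 148 and 240 (-2.21 ± 0.22, adjusted p = 1.68e-05). Crat, carnitine acetyltransferase, was at 6368 to 10452 against 3625 to 5526 (-0.97 ± 0.12, adjusted p = 0.00013), and the carnitine carrier Slc25a20 fell at -0.87 ± 0.14 (adjusted p = 0.00143). The groups did not overlap in these genes. The trifunctional protein's subunits Hadha (-0.67 ± 0.14, adjusted p = 0.0136) and Hadhb (-0.81 ± 0.13, adjusted p = 0.00129) fell together, as did the reductase Decr1 (-0.61 ± 0.10, adjusted p = 0.00279) and the dehydrogenase Acadm (-0.60 ± 0.12, adjusted p = 0.00947). In peroxisomes 10 of 43 fell and 1 rose (median -0.21): the thiolase Acaa1b fell at -1.16 ± 0.18 (adjusted p = 0.00135), malonyl-CoA decarboxylase Mlycd at -0.61 ± 0.09 (adjusted p = 0.000842) and the peroxin Pex3 at -0.54 ± 0.10 (adjusted p = 0.0042).

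Of 19 tested genes of branched-chain amino acid catabolism, the path from leucine, isoleucine and valine to acyl-CoA, 9 fell and none rose (47.4%, median -0.35). Bcat2, the first step in mitochondria, had a median of 4817 in floxed and 2965 in Prx1-cre libraries (-0.77 ± 0.18, adjusted p = 0.0284). The dehydrogenase subunit Bckdha, the committed step, went from 4803 to 2969 (-0.53 ± 0.11, adjusted p = 0.00905). Pccb, of propionyl-CoA carboxylase, was at 3348 to 4662 against 2488 to 3069 with no overlap (-0.49 ± 0.08, adjusted p = 0.00197), and its partner subunit Pcca fell at -0.35 ± 0.08 (adjusted p = 0.0294). The calls of Bcat2 and Pcca were each lost without any 1 of 7 libraries, with highest adjusted p of 0.0686 without floxed F2 and 0.0667 without floxed M1. By contrast, 0 of 21 glucose uptake and glycolysis genes and 0 of 16 glycogen genes passed in either direction, with medians of -0.05 and -0.24.

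**Figure D2:**
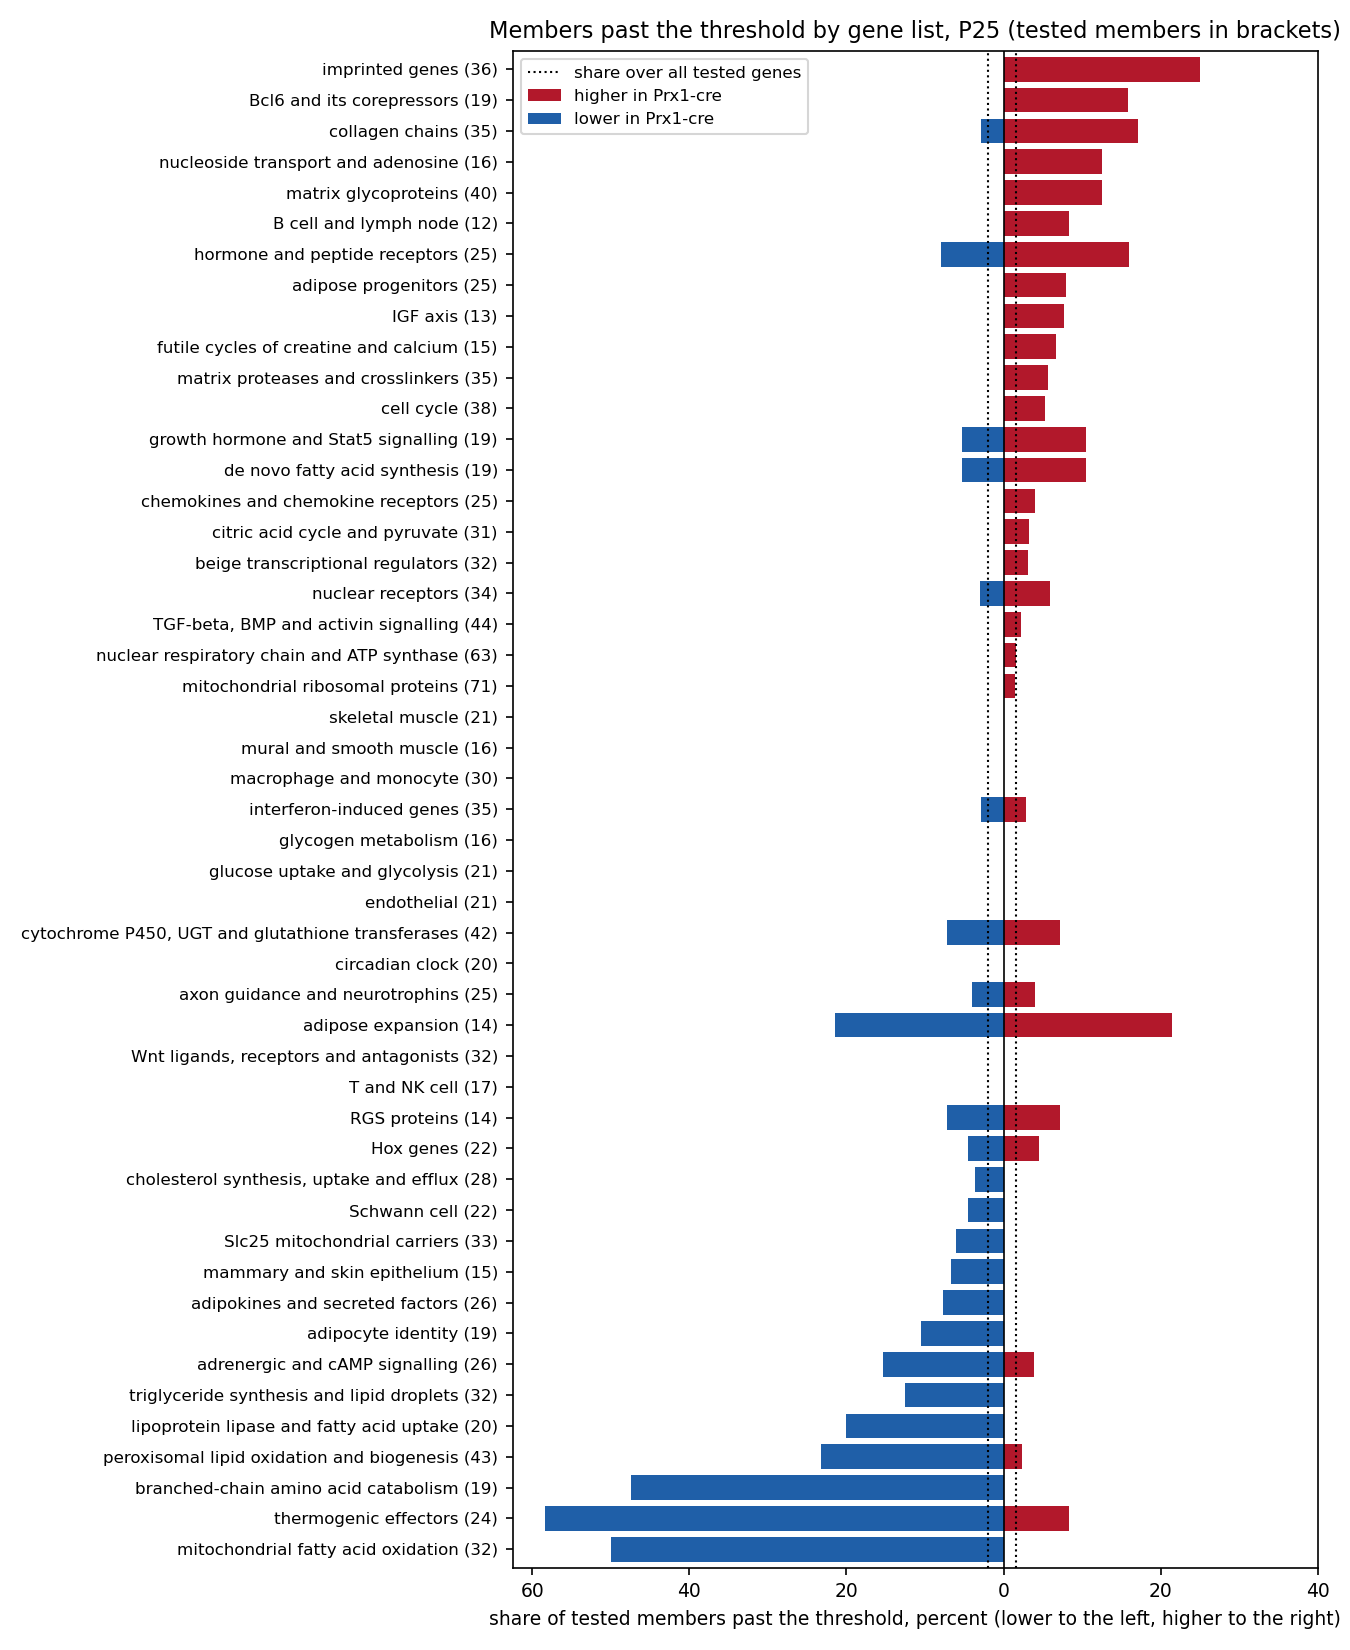
Share, in percent, of each gene list's tested members (numbers in brackets) that fell (left) or rose (right) in Prx1-cre libraries at P25; dotted lines are the shares over all 12738 tested genes, 1.97% and 1.56%. Thermogenic effectors, mitochondrial fatty acid oxidation and branched-chain amino acid catabolism extend farthest to the left, with 14 of 24, 16 of 32 and 9 of 19 fallen, and imprinted genes farthest to the right, with 9 of 36 risen.

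Other large falls were spread over enzymes and little-studied genes. A830018L16Rik had 137, 168 and 250 in floxed against 20.4, 22.6 and 46.1 in Prx1-cre libraries (-2.74 ± 0.19, adjusted p = 2.72e-07), the smallest p among the fallen genes. The thioesterase Acot11 was at 208 to 1496 against 83.2 to 183 (-2.32 ± 0.36, adjusted p = 0.0012). Klhl2, an adaptor of a Cul3 ubiquitin ligase, was at 1092 to 2170 against 492 to 836 (-1.51 ± 0.14, adjusted p = 1.05e-05). None of these 3 overlapped between groups. The lipolactonase Pon1 fell at -1.51 ± 0.20 (adjusted p = 0.000323), interferon-induced Ifi27l2a at -1.48 ± 0.17 (adjusted p = 8.45e-05), the aldehyde dehydrogenase Aldh3b2 at -1.38 ± 0.22 (adjusted p = 0.00135) and Zyg11a, a Cul2 adaptor, at -1.76 ± 0.31 (adjusted p = 0.00353). Phospho1, a phosphatase of phosphocholine, fell from a range of 738 to 1108 to one of 315 to 541 (-1.26 ± 0.13, adjusted p = 2.02e-05), and Lrp3 from between 402 and 495 to between 165 and 254 (-1.04 ± 0.09, adjusted p = 5.48e-06). Aldh4a1, of proline breakdown (-0.69 ± 0.07, adjusted p = 1.25e-05), Lurap1 (-1.30 ± 0.13, adjusted p = 1.48e-05), vitronectin Vtn (-0.90 ± 0.11, adjusted p = 9.34e-05) and 2810459M11Rik (-1.60 ± 0.25, adjusted p = 0.00143) also fell with no overlap. Aldh3b2, Lrp3 and Phospho1 each overlap another tested gene in annotation, as do Cidea, Acsm3, Fabp3, Kcnk3, Crat, Acaa1b, Pex3, Bcat2, Prdm16, Esrra, St3gal6, Nid2, Col4a1 and Col4a2. Ifi27l2a overlaps a gene of its own family. The totals of all these genes are less certain.

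Matrix genes rose in part, with the basement membrane among them. Of 40 matrix glycoproteins 5 rose and none fell, with a median of 0.55 and 37 of 40 above 0. Nid2, a linker of basement membranes, was at 1308 to 2177 against 3038 to 4691 (1.20 ± 0.13, adjusted p = 3.27e-05) and thrombospondin Thbs1 at 342 to 718 against 1026 to 1799 (1.22 ± 0.16, adjusted p = 0.000282), without overlap. Of 35 collagen chains 6 rose and 1 fell (median 0.20). Col12a1 rose from a range of 89.5 to 283 to one of 379 to 840 (1.75 ± 0.25, adjusted p = 0.000523). The basement membrane chain Col4a2 rose from between 14752 and 20566 to between 21701 and 30890 (0.57 ± 0.10, adjusted p = 0.00477). Its head-to-head neighbour Col4a1 rose by 0.54 ± 0.13 (adjusted p = 0.0235), a call lost without floxed M3 or F2 or Prx1-cre M3 or F4 (highest adjusted p = 0.0628, without floxed M3). The macrophage elastase Mmp12 rose from between 27.3 and 52.1 to between 84.2 and 189 (1.49 ± 0.19, adjusted p = 0.000222).

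Beside these, none of 30 tested macrophage and monocyte markers passed, but 27 of 30 were above 0, with a median of 0.68. The list summed to 82328 to 130488 in floxed and 91987 to 154841 in Prx1-cre libraries. Adgre1, the macrophage marker F4/80, was at 180, 205 and 1337 against 323, 606 and 1295 (0.97 ± 0.48, adjusted p = 0.361) and Lyz2 was at 914, 1910 and 9272 against 1966, 3410 and 9320 (0.73 ± 0.48, adjusted p = 0.541). The part of these cells in the matrix and Mmp12 results was not tested. Of 38 cell cycle genes 36 were above 0 and 2 rose (median 0.37), of which 1 was the inhibitor Cdkn1c. Among 25 progenitor markers 2 rose (median 0.15), 1 of them Dlk1. Of 19 adipocyte identity genes none rose and 2 fell (median -0.15), Adrb3 and Cfd; Plin1 did not pass at -0.29 ± 0.08 (adjusted p = 0.0654). Cfd, adipsin, went from a median of 126814 to 63592 (-0.96 ± 0.23, adjusted p = 0.0261), a call lost without any 1 of 6 libraries, floxed M3 or F2 or Prx1-cre M1, F2, F3 or F4 (highest adjusted p = 0.0598, without floxed M3), and the acute phase protein Hp from 19535 to 10640 (-0.88 ± 0.18, adjusted p = 0.01). None of 17 T and NK cell, 21 endothelial and 16 mural markers passed, with medians of 0.44, 0.16 and 0.02.

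The genotype difference was present in libraries of either code letter. With males and females fitted as separate groups, 163 genes (1.28%) passed in males, 78 higher and 85 lower, and 69 (0.542%) in females, 39 higher and 30 lower, with 62 in both. All 450 changed genes had the same sign in males and females. They were chosen on the pooled difference, so this is a description. No gene differed in its genotype effect between females and males by limma's interaction test at an adjusted p under 0.05. At an unadjusted p under 0.05 there were 198 genes (1.55%), less than the share of 0.05 expected where no gene differs. The smaller groups limit this test. Mest had log2 fold changes of 4.93 ± 0.47 in males and 4.28 ± 0.50 in females, Bcl6 1.71 ± 0.26 and 1.95 ± 0.28, and Elovl3 -4.17 ± 0.66 and -3.18 ± 0.72. Elovl3 did not pass in females alone (adjusted p = 0.0765). Between females and males, 83 genes (0.652%) differed in floxed libraries, 67 of them higher in females, and 30 (0.236%) in Prx1-cre libraries, with 27 in both. Of the 15 tested mammary and skin epithelium markers, 6 were among the 67. Trp63, a basal epithelial factor and the 1 marker of that list past the genotype test, ranged from 33.3 to 136 in floxed and 11.2 to 47.4 in Prx1-cre libraries (-1.60 ± 0.33, adjusted p = 0.0113).

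**Figure D3:**
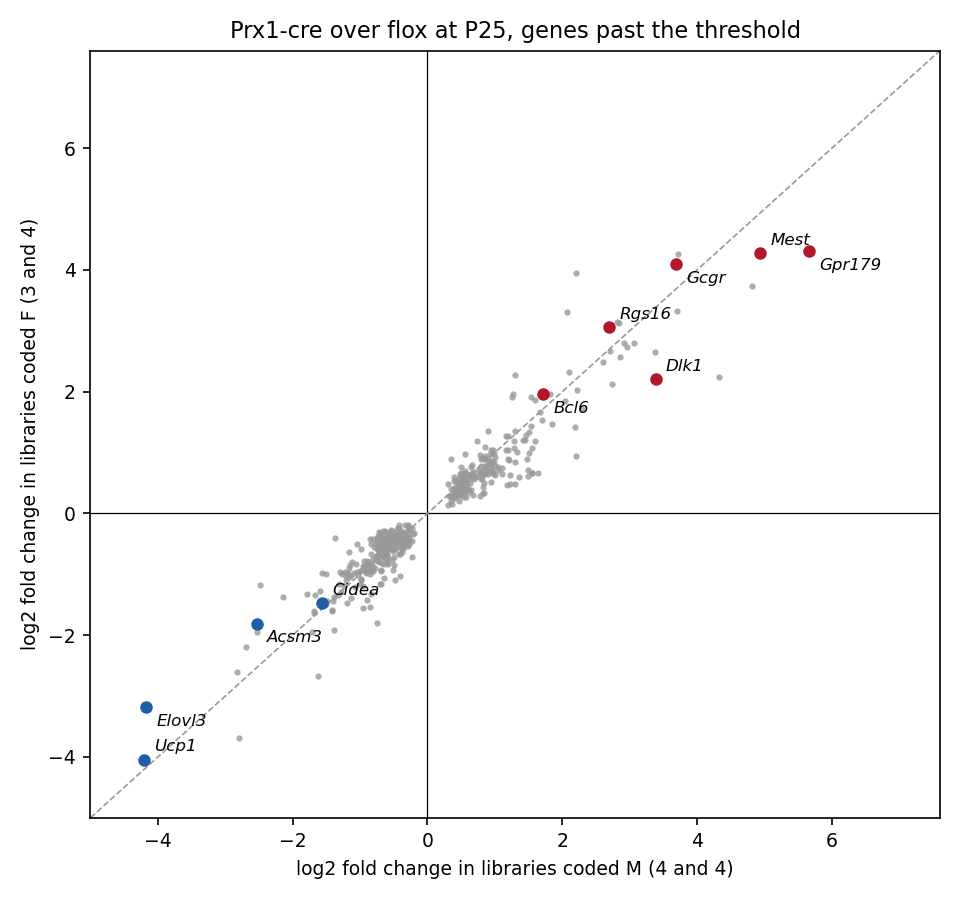
Log2 fold change of Prx1-cre over floxed libraries for the 450 genes past the threshold at P25, in libraries coded M (4 floxed and 4 Prx1-cre; horizontal) and coded F (3 and 4; vertical), with the line of equality dashed. All points lie where both values have the same sign; the 450 were chosen on the pooled difference.

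The same genotypes at 9 weeks and 4 C allow the P25 difference to be set against that of adult cold-housed mice, with no library in common. Age and temperature cannot be told apart in this comparison. The sex mix differs as well, since all 8 adult libraries were high in Xist, and a fit with the female P25 libraries alone is given below. Of the 449 P25 genes also tested there, 435 had the same sign and 313 passed in the same direction. The 313 are 69.7% of the P25 list and 16.7% of the 1876 genes tested at both ages that passed at 9 weeks. Over all 13496 genes tested at 9 weeks, 14.5% passed in either direction. The share of all genes with the same sign at both ages was not counted. Across the 12487 genes tested at both ages the log2 fold changes had a Pearson r of 0.664 and a Spearman rho of 0.541, where genes are not independent replicates. A test of the difference itself called 12 genes (0.0961%), 6 with the higher value at P25 (0.0480%) and 6 with the lower (0.0480%). On simulated data this test made more false calls, and recovered fewer of the changes, than the P25 test. The simulated 9-week libraries held no genotype difference and had an assumed depth, unlike the real ones. The simulation therefore gives no error rate for these genes. Single genes among the 12 remain uncertain, since the calls depended on single libraries and settings, as given below. Ucp1, at -4.18 and -2.12, was not among the 12 (difference -2.06 ± 0.63, adjusted p = 0.31). Mest rose at both ages, at 4.65 and 6.95, as did Gpr179, at 5.03 and 6.54, and Nt5e, at 2.56 and 3.53. None of the 3 was called different, at differences of -2.30 ± 0.63, -1.51 ± 0.59 and -0.97 ± 0.24 (adjusted p = 0.211, 0.563 and 0.135). A difference that was not called does not show equal effects.

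Dlk1 had the largest difference. It rose at P25, as given before, but at 9 weeks it was at 14.8 ± 5.75 in floxed and 8.60 ± 4.68 in Prx1-cre libraries (SD, n = 4 each; log2 fold change -0.75 ± 0.40, adjusted p = 0.25), a difference of 3.56 ± 0.50 between the ages. Rgs16 and the matrix protein tenascin, Tnc, rose at both ages and further at 9 weeks: Rgs16 by 2.90 and 4.79, and Tnc by 0.86 ± 0.19 and 2.65 ± 0.21. Gpx3, secreted glutathione peroxidase, fell at P25 from a median of 18306 to 11388 (-0.68 ± 0.16, adjusted p = 0.0219) and rose at 9 weeks from 26493 ± 5391 to 52945 ± 5044 (SD, n = 4 each; 1.01 ± 0.16, adjusted p = 0.00471). Its P25 call was lost without floxed F2 (adjusted p = 0.0536). Lypd1 likewise fell at P25 (-1.06 ± 0.21, adjusted p = 0.00776) and rose at 9 weeks (1.15 ± 0.22, adjusted p = 0.0108). Gpx3 and Lypd1 were the 2 genes called in opposite directions.

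Of the other 7 called genes, Cxcl9, an interferon-induced chemokine, rose at P25 by 0.59 ± 0.15 (adjusted p = 0.0438) and at 9 weeks by 1.98 ± 0.20 (adjusted p = 0.00103). The P25 call of Cxcl9 was lost without any 1 of 12 libraries (highest adjusted p = 0.0963, without floxed F3). Cux1, a homeodomain repressor, fell by 0.32 at P25 and by 1.04 at 9 weeks. Gmpr, Ergic1, St3gal5, Slc38a2 and BC051226 did not pass at P25, at 0.03, 0.09, -0.07, -0.01 and -0.42, and passed at 9 weeks, at -1.62, -2.30, -1.88, -0.43 and 0.70. The number of genes called depended on single libraries and settings. It was 60 without the muscle-rich floxed library 3 of the 9-week group, 3 with a muscle covariate, and 0 with the female P25 libraries alone. In that limma fit of fewer libraries, 1083 of 12487 genes passed an unadjusted p of 0.05, beside 850 in the main fit. The called genes kept the sign of their difference in it, at 2.96 for Dlk1 and -1.67 for Gpx3. Their lowest adjusted p in it was 0.0645, for Gpx3 and Lypd1.

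**Figure D4:**
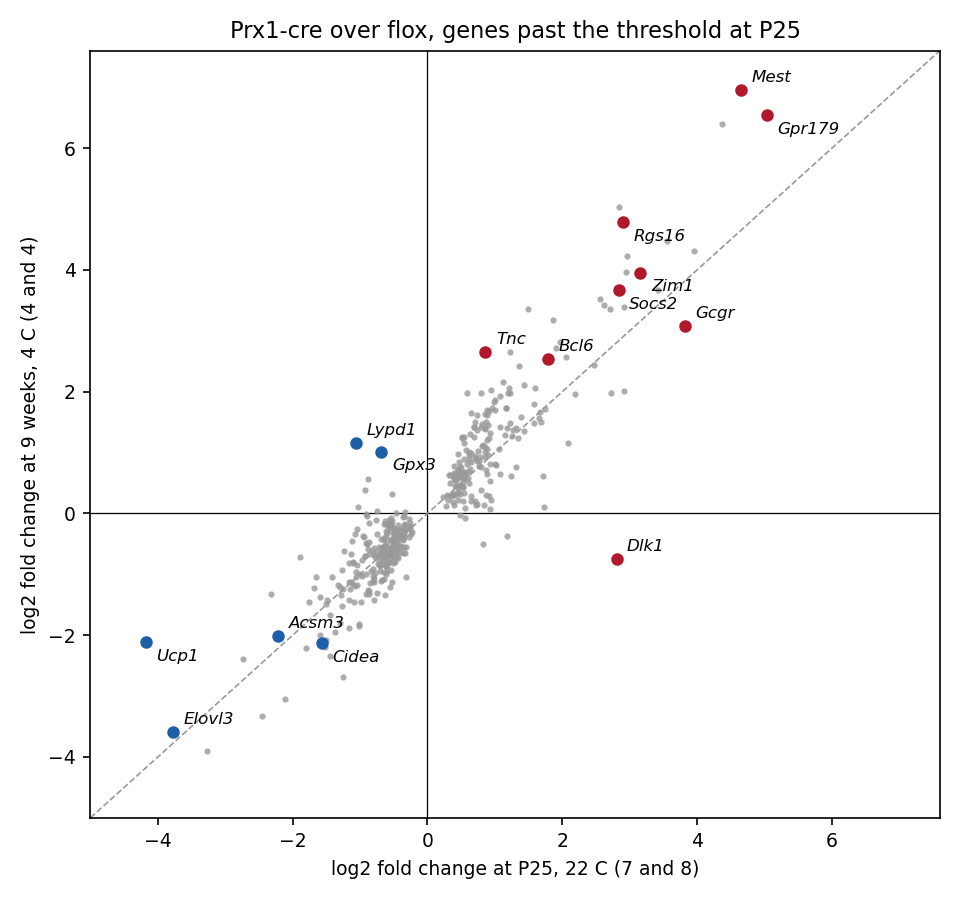
Log2 fold change of Prx1-cre over floxed libraries at P25 and 22 C (7 and 8 libraries; horizontal) and at 9 weeks and 4 C (4 and 4; vertical) for the 449 genes past the threshold at P25 and tested at both ages, with the line of equality dashed. Most points share their sign, 435 of 449; Dlk1, at 2.81 and -0.75, and Gpx3 and Lypd1 have values of opposite sign.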

How the data were processed

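Poly(A) RNA of inguinal fat was sequenced from 15 P25 samples, and from 8 samples at 9 weeks for comparison. The deposited signal values are the authors' normalized counts per gene; kallisto, DESeq2 and mm10 are named, without versions or settings, per the submitters' processing notes. Raw counts could not be recovered: 64.0 to 67.3% of low values in a library were whole multiples of its step within a tolerance of 0.02, so depths are estimates. All per-sample columns were matched to a group (0 were not), but column codes match no sample number in the labels.

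Tests used limma 3.58.1 in R 4.3.3 (trend option, log2(value + 1)), two-sided, with Benjamini-Hochberg adjustment over all tested genes and a threshold of 0.05. Genes were tested when they reached 10 in at least 7 libraries at P25, or in at least 4 libraries at 9 weeks. The age comparison was 1 fit of 4 groups over the genes that passed both filters. The procedure was tested on simulated data, where the age comparison made more false calls and recovered fewer changes than the P25 comparison. The simulated 9-week libraries were given no genotype difference and an assumed depth. Of 22622 identifiers, 21 matched no symbol. Gene positions, promoter windows (250 bases before to 50 after a start) and printed bases are from RefSeq's GRCm38.p6 tables, and bases in GENCODE vM21 exons were left out. Python 3.11.15 with matplotlib 3.10.9 drew the plots.

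Named genes are Bcl6 and Prrx1, the 12 largest rises and falls with a mean of at least 50 and no overlap, the 10 smallest p in each direction, up to 6 members past the threshold in each of 55 lists, and, for age, the 8 largest differences each way. Neighbours of Mest and Usp29, pairs with opposed starts, promoter matches, Slc5a3 and members given as not passed were chosen after their values were seen. Some genes that these rules take are not reported here. The groups, lists and members were chosen with earlier results of these data known, so lists are described by counts and medians and were not tested. Alternatives were other size factors, quantile normalization, pseudocounts of 0.5 and 5, no filter and a filter at 50, covariates for Xist and muscle, library weights, each library left out, and a Welch-Satterthwaite reference for age. Fits within each sex, a block by column code and the female P25 libraries alone were chosen after seeing the data.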

Additional observations from a re-analysis of the deposited data

Results flagged for a closer look

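A library stood apart from the rest of its group in 10 of 224 groups of values, for 112 genes in 2 groups each, by the gap between the extreme library and its neighbour; chance alone sets a library apart in about 1 in 20 groups. Prx1-cre library F4 was low for Bcl6, at 1517, and for Socs2, at 860.2. Floxed library M4 was low for Peg3, at 184, and for Ppara, at 327. Floxed library F4 was low for Bcat2, at 2429, and for Klhl2, at 1092. Prx1-cre library F2 was low for Mta3, at 544, and for Pccb, at 2488. Prx1-cre library F1 was low for Esr1, at 1305, and floxed library M3 stood apart for Klhdc10, at 978.

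The genotype difference itself differed between P25 at 22 C and 9 weeks at 4 C in 12 genes by a test of that difference. The P25 minus 9-week difference in log2 fold change was 3.56 for Dlk1, 2.39 for Ergic1, 1.80 for St3gal5, 1.65 for Gmpr, 0.72 for Cux1 and 0.42 for Slc38a2. It was -2.21 for Lypd1, -1.89 for Rgs16, -1.79 for Tnc, -1.70 for Gpx3, -1.39 for Cxcl9 and -1.12 for BC051226. Age and temperature cannot be told apart here, and the sex mix also differs between the ages.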

How the results depend on the processing

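Of the 86 genes given with values that passed at P25, 75 passed without any 1 library, and none had another sign under any alternative run. Signs were not counted for the rest of the 112 tested genes given with values, which did not pass. Some of those changed sign within a sex: Jak2, at 0.08 in the main fit, was at -0.05 in males, and Cish, at 0.07, was at -0.67 in females. The 199 risen and 251 fallen genes became 78 and 85 in males alone and 39 and 30 in females alone, fits with fewer samples. Leaving out 1 library gave 129 to 289 risen and 155 to 377 fallen genes. Without floxed M3 288 genes were called in all, without Prx1-cre M3 321 and without floxed F4 666; other size factors, quantile normalization, pseudocounts, filters, covariates and library weights kept each count within 1.5 times. The 12 genes that differed between ages became 6 with a filter at 50, 3 with a muscle covariate, 467 with library weights, 38 with the Welch-Satterthwaite reference and 0 with P25 females only; leaving out 1 library gave 3 to 60. It was 60 without 9-week floxed library 3, and 3 without 9-week floxed library 1 or Prx1-cre library 1 or 2. The cause was not tested. Columns carry none of the sample numbers of the labels, so no pairing comes from them. Same-coded libraries had correlated deviations of -0.22 to 0.62. Floxed M1, M4, F2 and F4 correlated best with the Prx1-cre library of their own code, at 0.33, 0.58, 0.29 and 0.62. Floxed M2, M3 and F3 correlated best with another code. Whether equal codes mark a shared litter or batch was not tested, and the main fit takes no account of the codes. A replicate block by column code, which leaves out Prx1-cre F1, gave 299 risen and 426 fallen genes, 404 of them among the 450 of the main fit. Low-valued genes are limited by the depth of 4989000 reads in the shallowest library.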
